A study of Caenorhabditis elegans with 2 samples.

Results

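The genes of the insulin signalling pathway of Caenorhabditis elegans, from the receptor daf-2 to the transcription factor daf-16, were examined for peaks of tagged C16A3.4 in first-stage larvae. The 8 genes daf-2, age-1, daf-18, pdk-1, akt-1, akt-2, sgk-1 and daf-16 were chosen by name, with earlier results of these data known. All 8 were found among the 19973 protein-coding genes annotated on the nuclear chromosomes. DNA bound by the tagged protein was precipitated from whole L1 larvae, males and females pooled, of the strain OP345 and sequenced (ChIP-seq). The genotype is unc-119(ed3) III; wgIs345, where wgIs345 is an inserted transgene for an eGFP-tagged C16A3.4, a gene also named znf-622. The labels describe a precipitation against eGFP-C16A3.4 and enter C16A3.4 as the antibody. They name neither the promoter of the transgene nor a deletion of the animals' own gene, and they give no age and no treatment. The 2 samples, called biological replicates 1 and 2, form 1 group, so no condition can be compared and nothing here was tested between groups.

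Insulin-like peptides bind DAF-2, a receptor tyrosine kinase. The receptor activates AGE-1, a phosphatidylinositol 3-kinase, whose lipid product is removed again by the phosphatase DAF-18. The lipid brings PDK-1 together with AKT-1 and AKT-2, beside which the kinase SGK-1 acts. The AKT kinases phosphorylate the FOXO transcription factor DAF-16 and hold it outside the nucleus. In young larvae the pathway is known for deciding between growth, arrest without food and entry into the dauer stage.

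A peak is described by its summit, its rank and the authors' signal value, whose unit is not stated. The 4 lists used were called on replicate 1 (30000 peaks), on replicate 2 (30000 peaks) and on both together (21096 pooled peaks), and the thresholded list holds the 3220 pooled peaks of highest signal, from 48.4 to 931. The lists give no read counts, so depth is unknown and a missing peak does not show that binding was absent. Distances run from the annotated 5′ end of the gene, negative upstream. The promoter window is 1000 bp upstream to 200 bp downstream. Many worm transcripts are trans-spliced, so the annotated end can differ from the start of transcription.

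The strongest peaks of the group belonged to pdk-1 and akt-2, one inside the gene and one upstream. In the thresholded list, 3 of the 8 genes had a summit in the promoter window, akt-2, daf-18 and daf-16, against 13.7% of all protein-coding genes. Among the 3220 strongest peaks of replicate 1 alone the same 3 genes had one, against 13.3% of all, and among those of replicate 2 alone 2 of 8 did, akt-2 and daf-18, against 13.1%. Summits inside the gene were found for 3 of 8, daf-2, pdk-1 and daf-16, against 3.44% of all protein-coding genes. The members are long, with a median of 6962 bp against 2027 bp for all, and a longer gene has more room for a summit, so that share is not a like-for-like measure. With the peak region in place of the summit, the same 3 members were found, against 8.23% of all. From 2500 bp upstream to the far end of the gene, a span set after seeing the data, 6 of the 8 genes had a thresholded summit, against 20.9% of all. This span covers the whole gene, so the limit of gene length holds for it too. Those 6 genes held 11 thresholded peaks, 5 of them in introns, and age-1 and sgk-1 held none. With 8 genes chosen by name and with earlier results of these data known, these shares describe the genes and were not tested.

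**Figure D1:**
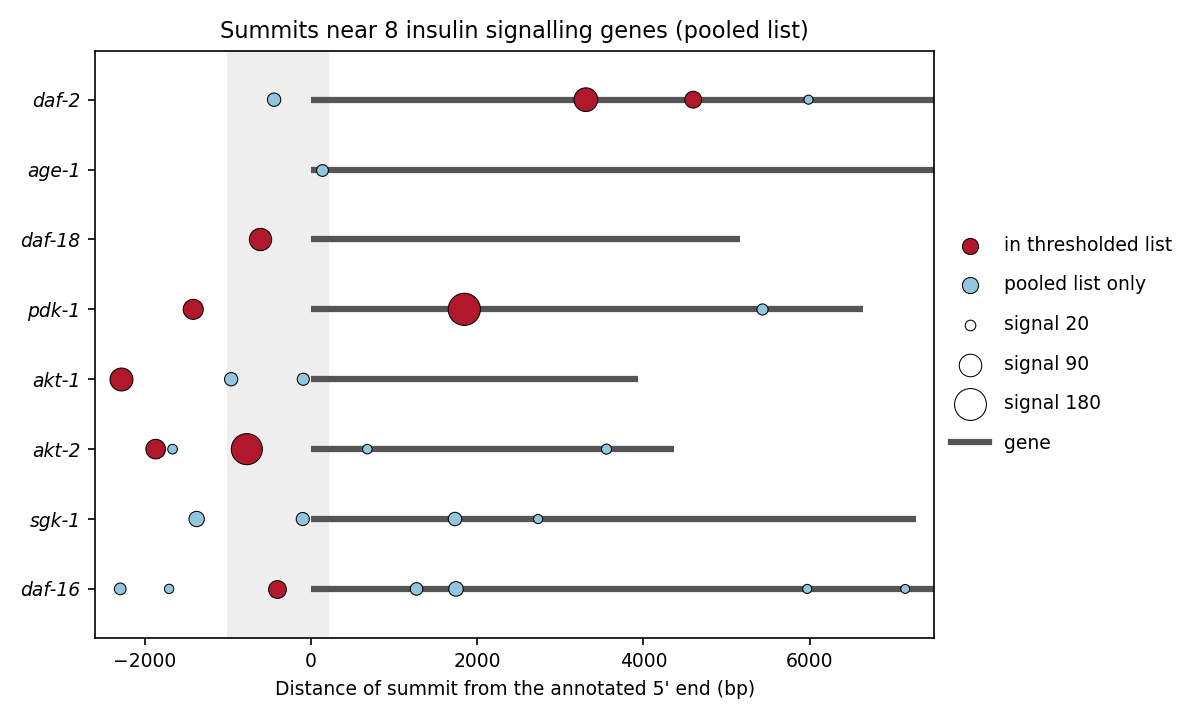
Summits of the pooled list near the 8 genes, by distance in bp from the annotated 5′ end (x axis, cut before the far end of the long genes), 1 row per gene. Circle area is proportional to the pooled signal, red circles are also in the thresholded list, blue ones are not, and the grey band is the promoter window. The largest circles are pdk-1 at +1844 bp (signal 183) and akt-2 at −773 bp (signal 171).

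The sequences under 6 of the 11 thresholded summits show what kind of DNA the peaks sit on. Each line gives 300 bases around the summit on the strand of the gene, read from the RefSeq genome (build WBcel235, the same as ce11), for the strongest peak of daf-2, daf-18, pdk-1, akt-1 and akt-2, and for the second akt-2 peak, which was added after its letters were seen. The daf-16 windows are described by their matches and are not printed, although the summit at +19352 bp (signal 91.4) was stronger than the daf-18 summit and held none of the searched words. Capitals mark TGTTTAC, the core that DAF-16 binds, TGATAAG, known from promoters that respond to DAF-16, and ACGCAG, each on either strand.
daf-2 +3307, chrIII:3037390-3037689, minus strand: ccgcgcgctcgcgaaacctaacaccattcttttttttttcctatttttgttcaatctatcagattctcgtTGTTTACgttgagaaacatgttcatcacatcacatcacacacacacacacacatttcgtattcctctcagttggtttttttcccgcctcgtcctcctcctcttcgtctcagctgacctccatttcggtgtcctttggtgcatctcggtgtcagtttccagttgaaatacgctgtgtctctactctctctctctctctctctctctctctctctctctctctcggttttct
daf-18 −609, chrIV:425637-425936, minus strand: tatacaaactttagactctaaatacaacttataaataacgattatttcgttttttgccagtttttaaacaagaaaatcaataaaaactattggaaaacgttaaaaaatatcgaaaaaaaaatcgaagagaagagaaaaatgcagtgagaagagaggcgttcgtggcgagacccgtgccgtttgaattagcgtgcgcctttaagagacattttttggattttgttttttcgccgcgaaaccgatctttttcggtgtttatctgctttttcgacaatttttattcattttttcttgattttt
pdk-1 +1844, chrX:1323038-1323337, plus strand: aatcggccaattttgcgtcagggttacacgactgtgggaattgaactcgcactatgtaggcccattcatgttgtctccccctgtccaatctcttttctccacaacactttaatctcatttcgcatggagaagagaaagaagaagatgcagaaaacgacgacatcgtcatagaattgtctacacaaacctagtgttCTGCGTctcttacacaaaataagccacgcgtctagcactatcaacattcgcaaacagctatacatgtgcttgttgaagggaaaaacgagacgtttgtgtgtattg
akt-1 −2290, chrV:10246465-10246764, plus strand: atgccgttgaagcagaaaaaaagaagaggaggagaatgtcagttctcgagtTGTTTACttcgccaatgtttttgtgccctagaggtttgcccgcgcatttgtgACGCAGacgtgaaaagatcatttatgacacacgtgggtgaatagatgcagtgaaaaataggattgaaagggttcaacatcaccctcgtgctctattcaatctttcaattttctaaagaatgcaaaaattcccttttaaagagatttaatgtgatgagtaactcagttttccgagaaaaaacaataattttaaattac
akt-2 −773, chrX:14146777-14147076, plus strand: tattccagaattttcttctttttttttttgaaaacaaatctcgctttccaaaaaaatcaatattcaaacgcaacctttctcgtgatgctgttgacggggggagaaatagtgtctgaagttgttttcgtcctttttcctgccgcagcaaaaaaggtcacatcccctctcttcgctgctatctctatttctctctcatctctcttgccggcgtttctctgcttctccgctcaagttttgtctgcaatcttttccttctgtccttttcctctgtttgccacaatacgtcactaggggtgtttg
akt-2 −1870, chrX:14145680-14145979, plus strand: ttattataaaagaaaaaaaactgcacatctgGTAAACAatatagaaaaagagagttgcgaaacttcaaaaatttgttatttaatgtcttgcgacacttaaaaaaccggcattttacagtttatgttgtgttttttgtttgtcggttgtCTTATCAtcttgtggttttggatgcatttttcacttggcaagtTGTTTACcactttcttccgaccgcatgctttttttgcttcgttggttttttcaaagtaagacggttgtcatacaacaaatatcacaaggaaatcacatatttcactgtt

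The word ACGCAG was singled out after seeing the data. Of the words of 6 bases present within 100 bp of at least 20% of thresholded summits, both strands merged, it had the highest ratio to the windows 500 bp to each side. It occurred in 24.8% of the 300-base windows at thresholded summits and in 6.18% of the flanks. Among the 11 member peaks, 4 held it, namely both pdk-1 peaks, the akt-1 peak and the weaker daf-2 peak at +4599 bp, which held 3 matches. Of these, the upstream pdk-1 peak and the akt-1 peak lay only in the wider span set after seeing the data. The peaks of daf-18, akt-2 and daf-16 and the stronger daf-2 peak did not hold ACGCAG. Other words were also more frequent within 100 bp of thresholded summits than in the flanks. Among them were AGAGAG (32.9% and 8.66%) and AGAGAC (27.4% and 7.20%), which were not counted in the member windows.

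The DAF-16 letters TGTTTAC, searched on both strands, lay in 4 of the 11 member windows, against 6.58% of all thresholded windows and 3.99% of the flanks. The windows were those of daf-2 at +3307 bp, akt-1 at −2290 bp, akt-2 at −1870 bp with 2 matches, and daf-16 at −408 bp. The akt-1 and akt-2 windows lay only between 2500 and 1000 bp upstream, in the span set after seeing the data. Of the 11 peaks, 8 lay in the promoter window or inside the gene, and among these only the daf-2 and daf-16 windows held TGTTTAC. The variant TATTTAC was found in none of the 11, against 5.22% of thresholded windows. TGATAAG was found in 1, that same akt-2 window at −1870 bp and so none of the 8, against 5.75%. No match overlapped a match of another searched word in the printed windows. A match describes the letters and does not show that a protein binds there.

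The daf-2 window at +3307 bp held a run of 40 bp of the repeat GA (CT on the gene's strand), and the daf-16 window at +19352 bp held a run of 26 bp. Runs of at least 16 bp were present in 2.55% of thresholded windows. How reads were placed on such repeats is not given in the sources used here, and their part in the signal was not tested. The share of G and C was highest at the pdk-1 peak at −1418 bp, with 59.0%, against a median of 39.0% over thresholded windows and a 95th percentile of 51.7%.

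At the receptor gene daf-2, the thresholded peaks lay in the first intron of the longest transcript and within another gene. daf-2 spans 46.3 kb of chromosome III, positions 2994514 to 3040846 on the minus strand, with 6 annotated transcript starts. The stronger peak (positions 3037367 to 3037710) had its summit at +3307 bp, with a signal of 99.2 and rank 1284 of 3220. Replicate 1 gave 33.7 at rank 1712 and replicate 2 gave 64.6 at rank 1127. The summit lay in that intron, which is 11981 bp long, and 4 bp from the 5′ end of linc-143, a long non-coding RNA gene on the same strand inside that intron. The printed daf-2 sequence is therefore also the start region of linc-143, and the signal cannot be assigned to 1 of the genes.

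The other daf-2 peak (positions 3036075 to 3036418) had its summit at +4599 bp, also within linc-143, 1296 bp from its start. Its signal of 50.1 placed it at rank 3095, just inside the lowest kept value of 48.4. Replicate 1 had a signal of 15.6 at rank 6103, with its summit 94 bp away, and replicate 2 had 35.6 at rank 2625. The replicates thus ranked this peak far apart. Near the annotated 5′ end of daf-2, at −445 bp, the pooled list had a weaker summit of signal 31.5 at rank 5154, which replicate 1 ranked 3681 (19.9) and replicate 2 ranked 17510 (9.09). The other 5 pooled summits inside daf-2 had signals of 14.6 to 18.6, and none of them was matched in both replicates within 100 bp.

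age-1, which encodes the catalytic subunit of the PI 3-kinase, had no thresholded peak. On chromosome II (positions 11519328 to 11527054, minus strand), the pooled list had 1 summit in its promoter window, at +134 bp in a coding exon, with a signal of 24.5 and rank 7190. Replicate 1 had 11.3 there at rank 13332 and replicate 2 had 12.9 at rank 9436. The medians of the relaxed lists were 19.7 for the pooled list, 10.7 for replicate 1 and 9.89 for replicate 2, so age-1 lay above each, by the least in replicate 1. Those lists hold background as well as peaks. Over genes with a window summit, the median highest window signal was 31.0 (pooled), 13.6 (replicate 1) and 14.6 (replicate 2). age-1 lay below each of these medians.

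daf-18, the lipid phosphatase gene, had a promoter peak that it shared with a neighbour. The peak (chromosome IV, positions 425614 to 425957) had its summit at −609 bp, with a signal of 88.0 and rank 1534. Replicate 1 gave 36.5 at rank 1507 and replicate 2 gave 44.8 at rank 1964, with both summits within 22 bp. The same summit lay at −382 bp from garr-1, a gene on the opposite strand, so it sits between divergent genes and is nearer to garr-1. No pooled summit lay inside daf-18. This window held no searched letters, and 32.3% of its bases were G or C.

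pdk-1 carried the strongest peak of the 8 genes, and it lay outside the promoter window. The peak (chromosome X, positions 1323016 to 1323359) had its summit at +1844 bp in intron 2, which is 2051 bp long. Its signal was 183, rank 368 of 3220, with 52.5 at rank 819 in replicate 1 and 136 at rank 207 in replicate 2. No other protein-coding gene's promoter window held the summit, and no other annotated gene spanned it. Upstream at −1418 bp lay another thresholded peak, with a signal of 71.2 and rank 2055. Of the 10 member peaks matched in both replicates, their signals had the highest ratio there, with 15.3 at rank 6381 and 66.7 at rank 1067. Within the window itself, the pooled list and replicate 1 had no summit, and replicate 2 had 1 of signal 8.63 at rank 19159.

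The paralogous kinase genes akt-1 and akt-2 differed in where and how strongly they carried peaks. At akt-2 (chromosome X, positions 14147700 to 14152070) a summit lay at −773 bp, with a signal of 171, rank 436. Replicate 1 had 64.3 at rank 536 and replicate 2 had 105 at rank 430, so the lists placed it alike. By the highest pooled signal in the promoter window, akt-2 ranked 540 of the 7282 genes that had any. A further thresholded peak lay at −1870 bp (signal 68.0, rank 2176), with 24.03 in replicate 1 and 40.3 in replicate 2. Neither akt-2 summit lay in another protein-coding gene's window, and both had a match in each replicate within 14 bp.

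At akt-1 (chromosome V, positions 10248905 to 10252845) the thresholded peak lay further out, at −2290 bp, with a signal of 93.1 and rank 1432. Replicate 1 had 32.1 at rank 1848 and replicate 2 had 61.4 at rank 1238. Inside the akt-1 window the pooled list had only weaker summits, at −962 bp (signal 31.3, rank 5196) and at −94 bp (signal 25.96, rank 6623). The first of these was seen in both replicates (18.4 and 17.99), and the second only in replicate 2 (12.8). In the promoter window the highest pooled signal was thus 171 at akt-2 and 31.3 at akt-1, and the order was the same in replicate 1 (64.3 and 18.4) and in replicate 2 (105 and 17.99).

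sgk-1, the kinase gene that acts beside the AKT genes, had several weak summits and no thresholded one. On chromosome X (positions 16254842 to 16262122, minus strand), a pooled summit at −1377 bp had a signal of 41.8 and rank 3813, below the threshold, and was matched in replicate 1 (17.4) and replicate 2 (23.6). It lay inside mua-6, the neighbouring gene upstream on the same strand. Summits at −100 bp (signal 30.4) and at +1732 bp (signal 32.1) were also matched in both replicates. The latter lay at −262 bp from a downstream transcript start of sgk-1. At −100 bp replicate 1 had 16.9 and replicate 2 had 16.5, while at +1732 bp they had 20.6 and 11.96.

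daf-16, the FOXO gene at the end of the pathway, had thresholded summits upstream of each of 3 clusters of transcript starts, a grouping made after the summits were seen. It spans 26.2 kb of chromosome I (positions 10750498 to 10776703), with 11 annotated coding transcripts from 7 start positions. These fall at 0 to +462 bp, at +12605 and +13156 bp, and at +21010 and +22501 bp. The first peak lay at −408 bp (signal 56.3, rank 2691), with 24.2 in replicate 1 and 27.1 in replicate 2. Its summit was inside the non-coding RNA genes H36N01.1 and H36N01.4, at 64 and 60 bp from their 5′ ends, nearer than to that of daf-16, so it cannot be assigned to 1 of these genes. The second lay at +11478 bp, −1127 bp from the start of transcripts b and c, with a signal of 52.1 and rank 2966. The third, the strongest, lay at +19352 bp, −1658 bp from the start of transcript a, with a signal of 91.4 and rank 1467.

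The replicates did not give the daf-16 peaks equally. The summit at +19352 bp had 42.9 in replicate 1, rank 1170, and 40.8 in replicate 2, rank 2219. The summit at +11478 bp had 42.1 in replicate 2, rank 2125, and no replicate 1 summit within 100 bp, so it rests on replicate 2 and on the pooled reads. Just outside the thresholded list, a summit at +10048 bp had a signal of 44.6 and rank 3554, with 15.9 in replicate 1 and 27.1 in replicate 2. In all, 12 pooled summits lay inside daf-16, or 4.58 per 10 kb, against 1.72 per 10 kb over all protein-coding genes. Some of them were near the lowest signal of the pooled list, 13.95, and lacked a match in 1 replicate. An example is the summit at +7150 bp (signal 14.04), matched only in replicate 2. The pooled figure was also 4.58 at akt-2, from 2 summits of signals 16.1 and 18.1, each matched in only 1 replicate. At daf-2 it was 1.51. In replicate 1 daf-16 held 4.96 per 10 kb and daf-2 held 2.37, against 2.57 over all genes. In replicate 2 they held 7.25 and 2.37, against 2.80 over all genes. Thresholded summits gave 0.763 per 10 kb at daf-16 and 0.432 at daf-2, against 0.131 over all genes. daf-2 thus lay below the density over all genes in the other 3 lists and above it in this one. Each of the thresholded figures rests on 2 summits, and those of daf-2 both lay within linc-143.

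**Figure D2:**
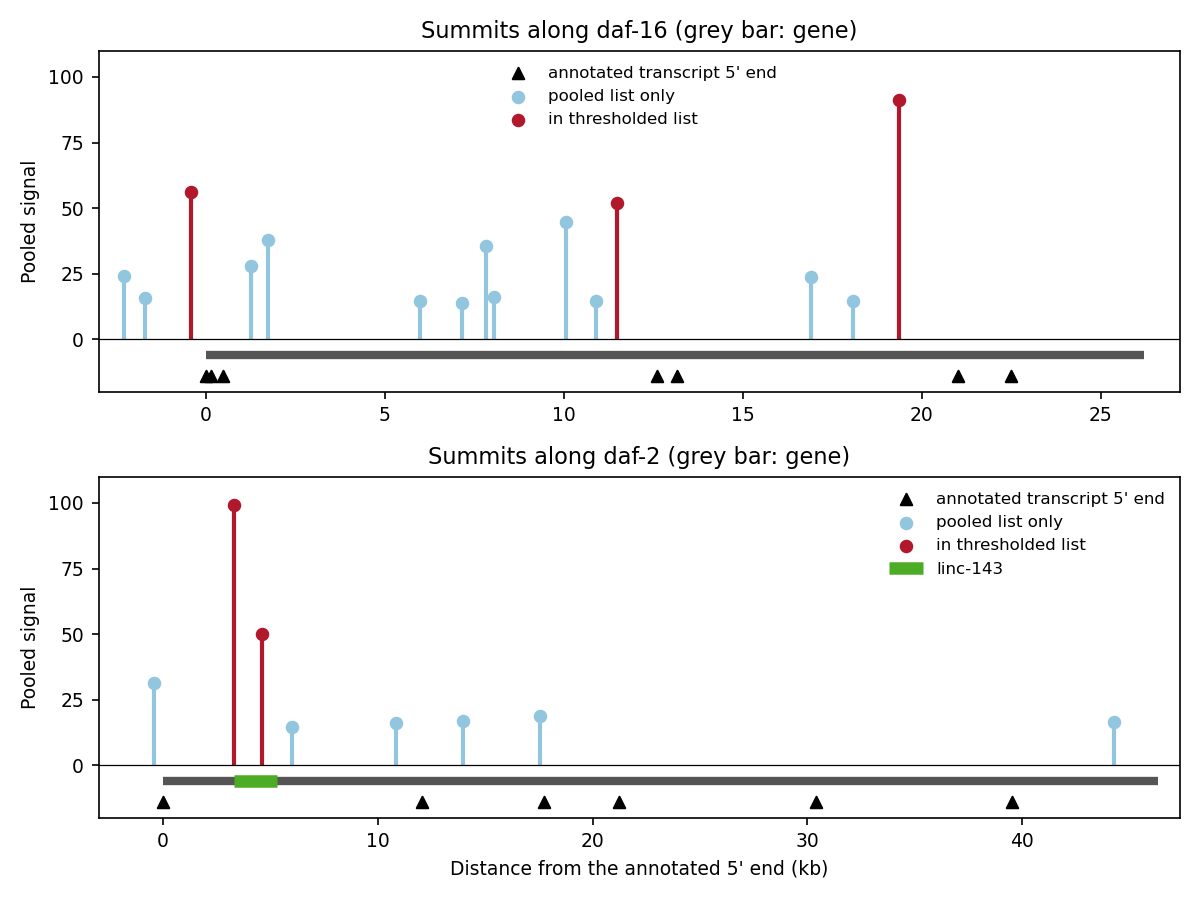
Pooled summits along daf-16 (upper) and daf-2 (lower), with distance from the annotated 5′ end in kb on the x axis and the pooled signal on the y axis. Red lines are summits in the thresholded list, blue ones are not, triangles are annotated transcript 5′ ends and the green bar is linc-143. The daf-16 red summits, at −408, +11478 and +19352 bp, each precede a cluster of triangles, and both daf-2 red summits lie over linc-143.

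The replicates were next compared at all 11 thresholded member peaks. A summit of both replicates lay within 100 bp at 10 of the 11, against 93.0% of all thresholded peaks. The signal of replicate 2 was higher at 9 of these 10, against 80.9% of all matched thresholded peaks, with ratios from 0.950 at daf-16 (+19352 bp) to 4.36 at pdk-1 (−1418 bp) and a median of 1.80. At these extremes the replicate 1 summit was offset from the pooled one, by −67 bp at daf-16 and 63 bp at pdk-1. Neither was matched within 50 bp. Over all matched thresholded peaks the median ratio was 1.46 and the 95th percentile 3.50, so the upstream pdk-1 peak lay above that percentile and the others below it. The lists were called separately on a scale that is not stated, so the ratios describe the lists.

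**Figure D3:**
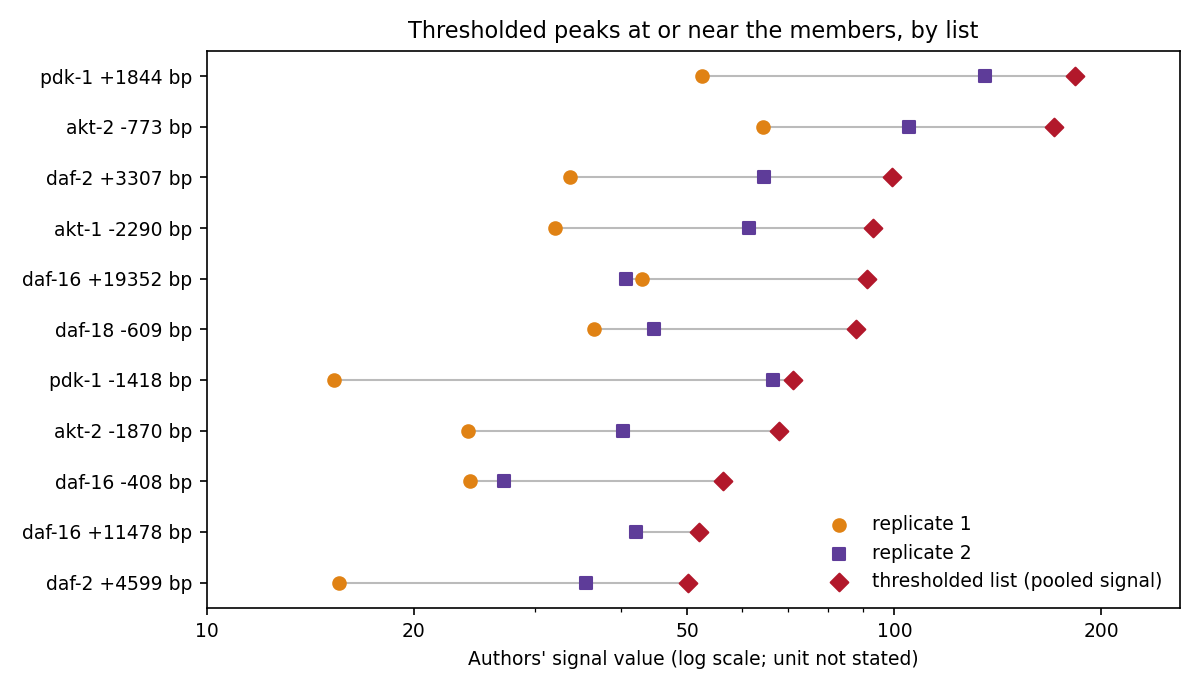
Signal of the 11 thresholded member peaks (rows, labelled by gene and distance) on a log x axis, without unit, in replicate 1 (circles), replicate 2 (squares) and the thresholded list (diamonds). The pdk-1 row at −1418 bp has the widest gap between replicates (15.3 and 66.7), and the daf-16 row at +11478 bp has no circle.

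In the relaxed lists nearly every member had some summit in its window, and the background was high as well. The pooled list gave 7 of 8, pdk-1 being the exception, against 36.5% of protein-coding genes. Replicate 1 gave 7 of 8 against 43.3%, and replicate 2 gave 8 of 8 against 42.9%. Inside the gene, the pooled list had a summit in 6 of 8, all but daf-18 and akt-1, against 32.4%. The members are long, so that share is again not a like-for-like measure. Among the genes with a pooled summit, the median of the highest window signal was 31.0. The member values were 24.5 at age-1, 30.4 at sgk-1, 31.3 at akt-1, 31.5 at daf-2, 56.3 at daf-16, 88.0 at daf-18 and 171 at akt-2. The sgk-1, akt-1 and daf-2 values lay next to that median, and replicate 1 (16.9, 18.4 and 19.9) and replicate 2 (16.5, 17.99 and 9.09) did not give them in 1 order.

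**Figure D4:**
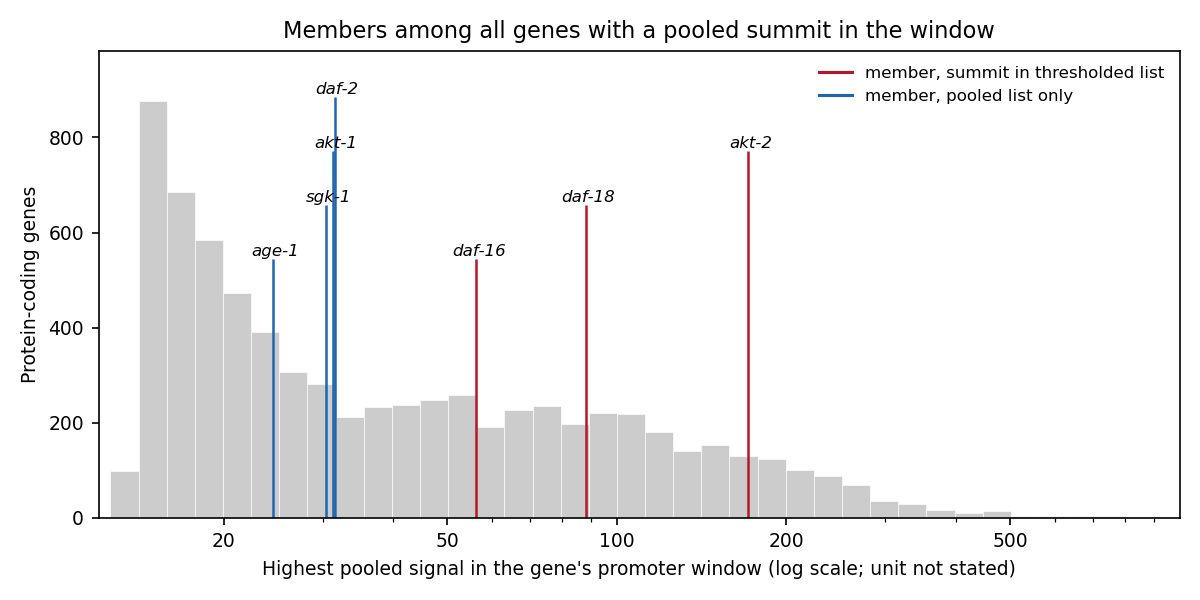
Number of protein-coding genes (y axis) by the highest pooled signal in the promoter window (log x axis, without unit), for the 7282 genes with such a summit. Vertical lines mark 7 members, red where the summit is in the thresholded list; age-1, sgk-1, akt-1 and daf-2 lie between 24.5 and 31.5, and akt-2 lies at 171.

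Of 45 further genes of the pathway, 9 had a thresholded summit in the promoter window, against the same 13.7% of all protein-coding genes. Of 18 partners and regulators of DAF-16, 7 had a summit and 11 had none. The highest were math-33, a deubiquitinase gene (signal 110.1), hcf-1, a nuclear cofactor gene (101), par-5, which encodes a 14-3-3 protein (88.1), and sir-2.1, a deacetylase gene (87.0). The replicate signals were 43.4 and 66.4 at math-33, 50.3 and 51.6 at hcf-1, 40.5 and 53.3 at par-5, and 34.2 and 54.1 at sir-2.1. The summits of math-33, hcf-1 and par-5 also lay in the windows of erfa-3, swd-2.2 and M117.3, each with a nearer 5′ end.

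Of 3 genes of TOR complex 2, rict-1 had a summit (signal 60.7; replicates 38.4 and 23.5), which was nearer to the 5′ end of gfm-1. Of 15 genes known as DAF-16 targets, 1 had a summit, daf-15, the Raptor gene (signal 112; replicates 35.9 and 75.9), and 14 had none, among them sod-3 and mtl-1. None of the 3 genes of the receptor side (ist-1, aap-1 and shc-1) had one, nor did any of the 6 genes of a phosphatase subunit and membrane-associated helpers linked to AKT-1 (pptr-1, eak-3, eak-4, eak-6, eak-7 and sdf-9). For each group the share to set beside it is the same 13.7% of all protein-coding genes. The groups are small and were not tested against that share or against each other.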

How the data were processed

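Peaks were examined in 2 samples of 1 group. The authors' deposited notes say that peaks and background were called on each replicate with a control and on both together, and derive the thresholded list by the irreproducible discovery rate. The deposited signal value has no stated scale, and the −log10 q deposited by the authors is tied at 3.84 over the whole thresholded list, so peaks were ranked by signal. Neither aligner nor caller is given in the sources used here. Summits (deposited start plus offset) on ce11 were placed on WBcel235, another name of ce11, with genes of Ensembl release 115, using Python 3.11.15 and pandas 2.3.3. The gene's 5′ end is its outermost annotated end. Summits were matched within 100 bp. Window counting was tested on simulated data. All 8 members were named, neighbours where they held the same summit, and up to 4 genes per pathway group by highest signal. Members and lists were chosen with earlier results of these data known. The ce10 lists were not used. Alternatives were other windows, transcript starts, peak regions, list lengths, matching distances, sequence windows and each replicate alone.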

Additional observations from a re-analysis of the deposited data

How the results depend on the processing

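The count of members with a thresholded promoter summit was 3 of 8, against 13.7% of all genes. Within 500 bp of the gene's start it was 1 (daf-16), against 11.6%. It was 6 with the 6440 strongest pooled peaks (20.2%) and 7 with all pooled peaks (36.5%). Over the span from 2500 bp upstream to the far end of the gene, it was 6 (20.9%). With each replicate's own 3220 strongest peaks it ranged from 2, without replicate 1 (daf-16 lost, 13.1% of all genes), to 3, without replicate 2 (13.3%). The count inside the gene, 3 (3.44% of all genes), was 6 with all pooled peaks (32.4%). It was 3 without replicate 1 (3.53%) and 3 without replicate 2 (3.67%). The members are long, so shares inside the gene and over the span from 2500 bp upstream are not like-for-like. Of the 45 further pathway genes, 9 had a thresholded promoter summit, against 13.7% of all genes. With 2000 bp upstream the count became 14 (17.4%), and with all pooled peaks 22 (36.5%). It was 6 within 500 bp (11.6%), 6 with the 1610 strongest peaks (8.15%) and 12 with every transcript start (14.5%). It was 8 without replicate 1 (13.1%) and 10 without replicate 2 (13.3%). Every transcript start left 3 members, against 14.5% of all genes. Of the 11 thresholded member peaks, 10 were matched in both replicates within 100 or 200 bp and 7 within 50 bp. The TGATAAG count of 1 became 2 over whole peaks. Depth is unknown, so weak or missing peaks at age-1 and sgk-1 cannot be read as absence.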
